A study of Homo sapiens with 12 samples.

Results

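The comparison described here sets LNCaP cells carrying a control shRNA and given doxycycline against LNCaP cells carrying a vector control (pLPLUC). It was defined by the sample labels alone and uses 6 of the 12 RNA sequencing libraries of the series, 3 in each group. The unit described is the gene: 26076 of the 63677 Ensembl gene IDs in the count table passed a filter on low counts and were tested. LNCaP is an established, androgen-sensitive line of human prostate cancer, and the study asked how raising or lowering USP22, a ubiquitin protease of the SAGA coactivator complex, alters its transcriptome. The cells of all groups grew in hormone-proficient medium. For 5 days, doxycycline (1 ug/mL, renewed every 48 hours) was added to the cells with an shRNA. No such treatment is recorded for the vector control or USP22 overexpression groups. Vector and doxycycline therefore differ together between the groups compared, and their parts cannot be told apart. Separate cultures are not stated for the replicates, nor whether a line was a single clone, so p-values measure only the spread between replicate libraries, which may be technical. In the test of genes that spread was estimated from all 12 libraries.

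Growing cells couple cell division to the making of ribosomes. The transcription factor MYC drives many genes of ribosome assembly, nucleotide synthesis and the cell cycle, and E2F and mitotic programmes are switched on as cells enter and pass through division. Mitochondria carry their own genome and ribosomes, whose proteins are mostly encoded in the nucleus. Doxycycline is a tetracycline antibiotic that binds bacterial ribosomes, and drugs of this class are known to slow protein synthesis on the related mitochondrial ribosome. Interferons act through receptor-bound kinases and transcription factors to induce antiviral genes and the MHC class I pathway, which displays peptides at the cell surface. Protein synthesis, mitochondrial activity and cell number were not measured here, and only RNA levels are described.

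The 6 libraries held 78539193 to 103690001 counted reads each. USP22 itself did not pass the test between these groups, at 482, 491 and 565 CPM (read counts per scaled library size) in the vector control libraries and 479.6, 473 and 479.7 CPM in the shRNA control libraries (log2 difference -0.10, adjusted p = 0.203). Vector control replicate 3 stood apart: the SD of its log2 levels around its group mates was 0.30, against 0.19 and 0.20 for the other vector control libraries and 0.13 to 0.15 for the shRNA control libraries. List counts in the shRNA control comparison are therefore also given without it. Markers of luminal prostate cells were high in both groups, with summed levels of 7181 to 7271 CPM in vector control and 8778 to 9098 CPM in shRNA control libraries. Immune markers summed to between 1.84 and 2.2 CPM and markers of stroma and endothelium to between 21.2 and 28.7 CPM over the 6 libraries. Markers of neuroendocrine cells summed to 585 to 707 CPM in vector control and 187 to 215 CPM in shRNA control libraries, mostly from SYT4 and DDC, while CHGB and INSM1 did not reach the filter. Of the 7 tested neuroendocrine markers, SYT4 and DDC fell and ENO2 and SYP rose. Markers of basal epithelium summed to 127 to 138 CPM in vector control and 133 to 137 CPM in shRNA control libraries, with KRT5 and TP63 too low to be tested. Of its 6 tested members 4 (KRT14, ITGB4, NGFR and DST) rose and ITGA6 fell, with a median log2 difference of 0.99 (1.10 without vector control replicate 3). DST was not called with only the 6 libraries in the fit (adjusted p = 0.106). KRT14, a basal keratin, stood at 0.635, 0.622 and 0.564 CPM against 3.69, 3.47 and 3.42 CPM. Markers of other epithelial lines summed to 123 to 125 CPM and 127 to 139.5 CPM, and 4 of the 10 tested rose and 2 fell. The part of these marker differences in the results below was not tested. In bulk RNA, fewer cells of a kind and less RNA per cell cannot be told apart.

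The RNA of the shRNA control cells differed widely from that of the vector control cells. Growth genes (cell cycle, MYC targets, ribosome and translation) and the nuclear genes of mitochondria were mostly lower, while interferon-stimulated and MHC class I genes were mostly higher. In edgeR's quasi-likelihood test with Benjamini-Hochberg adjustment over all tested genes and a threshold of 0.05, 11211 genes were called, 43% of those tested. Of these, 5665 (21.7% of tested genes) rose in the shRNA control and 5546 (21.3%) fell, and 2964 (11.4%) changed at least 2-fold. The median log2 difference over all tested genes was 0.02. The groups did not overlap for 12996 genes, 49.8% of those tested. Without vector control replicate 3, 12344 of 26896 tested genes were called (45.9%), and 10309 of the 11211 kept their call and direction. These shares are the background against which each list below is to be read. Among protein-coding genes, from which most lists are drawn, 28.3% rose and 28.6% fell.

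**Figure D1:**
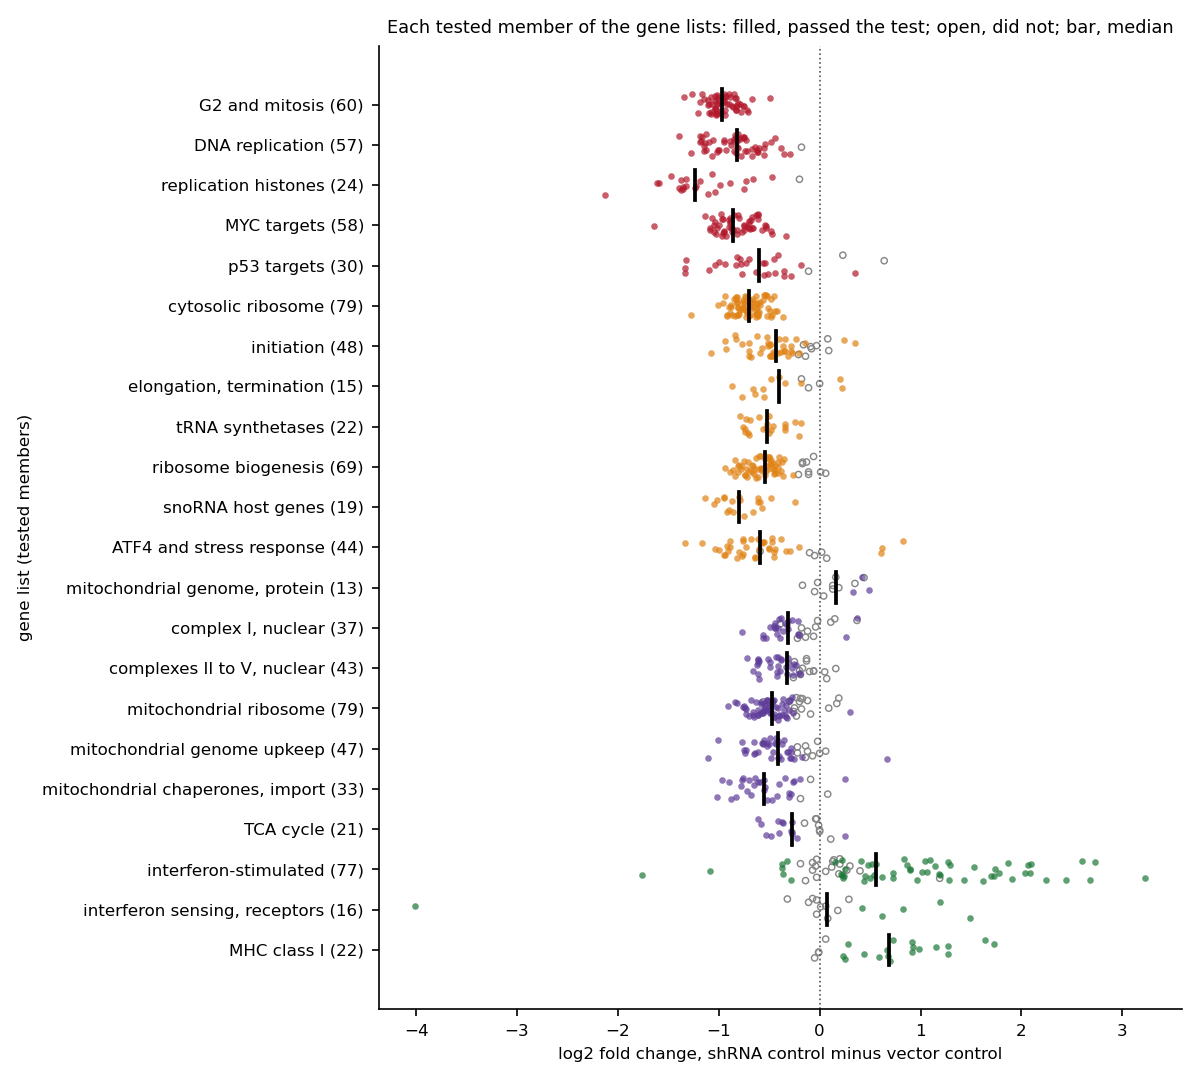
Log2 fold change of shRNA control minus vector control (horizontal axis) for every tested member of the gene lists (vertical axis, number of tested members in parentheses). Filled points passed the test, open points did not, and black bars are list medians; the G2 and mitosis members all lie below 0, and the interferon-stimulated list runs from -1.76 (CXCL10) to 3.23 (SAMD9L).

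Genes of cell division were lower throughout. All 60 genes of the G2 and mitosis list fell, with a median log2 difference of -0.97, and none of the shRNA control libraries overlapped the vector control libraries for any of them. CCNB1, the cyclin that partners CDK1 at entry into mitosis, stood at 246, 237 and 249 CPM in vector control and at 96.3, 105 and 101 CPM in shRNA control libraries (log2 difference -1.27, SE 0.06, adjusted p = 2.11e-10). Its partner kinase CDK1 fell from 291, 280.5 and 231 CPM to 115, 128 and 113 CPM. The proliferation antigen MKI67 fell by less, by 0.71 on the log2 scale, from 275, 271 and 269 CPM to 154, 157 and 187 CPM. NDC80 of the kinetochore and the condensin subunit NCAPH were the other mitotic genes with the smallest p, with log2 differences of -1.15 and -1.10. In each of these genes every shRNA control library lay below every vector control library. Without vector control replicate 3 the median of the list was -0.99, and all 60 genes were still called lower.

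Replication genes followed the same direction. Of 57 tested genes of the DNA replication list, 56 fell and 1 was not called, with a median of -0.82 (56 lower and -0.83 without vector control replicate 3). PCNA, the sliding clamp of DNA polymerases, stood at 241, 238 and 255 CPM in vector control and at 105, 111 and 108 CPM in shRNA control libraries (log2 difference -1.18, adjusted p = 6.17e-10). The replicative helicase subunit MCM4 and the initiation factor MCM10 fell by 1.15 and 1.28 on the log2 scale. The transcription factor E2F1 stood at 66.1, 60.9 and 87.3 CPM against 33.7, 35.9 and 36.5 CPM, a log2 difference of -1.01 that was -0.85 without vector control replicate 3. Of 24 tested genes for replication-dependent histones, 23 fell, with a median of -1.24. Without vector control replicate 3, in which the list was highest, 22 were called lower and the median was -1.08. H4C16 showed the largest fall of the 3 histone genes with the smallest p, from 48.3, 37 and 56.6 CPM to 9.95, 11.6 and 10.8 CPM. Histone copies are alike in sequence, only 27 of the 56 listed genes had an ID in the table that could be matched, and most histone mRNA lacks a poly(A) tail, which the total RNA libraries nonetheless capture.

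Regulators of the cell cycle moved both ways. Of 28 tested cyclins, cyclin-dependent kinases (CDKs) and their inhibitors, 6 rose, 14 fell and 8 were not called (median -0.17), and leaving out vector control replicate 3 gave 7 higher and 14 lower (median -0.15). CDC25A, the phosphatase that activates CDKs, fell from 58.6, 57.2 and 63.3 CPM to 28, 29.9 and 30.4 CPM. CDK2 and the CDK-binding protein CKS2 fell by 0.58 and 1.14 on the log2 scale, and cyclin D1 (CCND1) fell by 0.20. Against these, the CDK inhibitor CDKN1C was among the 10 largest rises of the whole comparison: it stood at 1.04, 1.36 and 1.44 CPM in vector control and at 8.07, 9.54 and 8.9 CPM in shRNA control libraries (log2 difference 2.79, SE 0.16, adjusted p = 1.24e-09). The kinase CDK6 rose from 7.57, 6.72 and 5.41 CPM to 12.6, 12.1 and 11.7 CPM, and the antiproliferative gene BTG1 rose by 0.52 on the log2 scale. CDKN1A, the p53-induced CDK inhibitor, fell instead, from 175, 174 and 220.1 CPM to 123, 129 and 116 CPM (log2 difference -0.63, adjusted p = 1.17e-05). It fell together with other targets of p53: of 30 tested genes on that list 26 fell, 1 (TP53I3) rose and 3 were not called, with a median of -0.60, and the counts without vector control replicate 3 were the same (median -0.56). Fewer mitotic and replication transcripts thus stood beside lower CDKN1A and higher CDKN1C.

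MYC and all tested genes of its target list were lower. MYC mRNA stood at 290.4, 293 and 335 CPM in vector control and at 93.1, 97.3 and 104 CPM in shRNA control libraries (log2 difference -1.64, SE 0.07, adjusted p = 3.34e-11). The groups were far apart, and the difference was -1.58 without vector control replicate 3. All 58 tested genes of the MYC target list, which includes MYC itself, fell, with a median of -0.86 (58 lower and -0.81 without that library). HSPD1, the mitochondrial chaperonin, fell from 1749.9, 1706 and 1694 CPM to 828, 874 and 839 CPM, and the cytosolic chaperonin subunit TCP1 fell by 1.09 on the log2 scale.

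**Figure D2:**
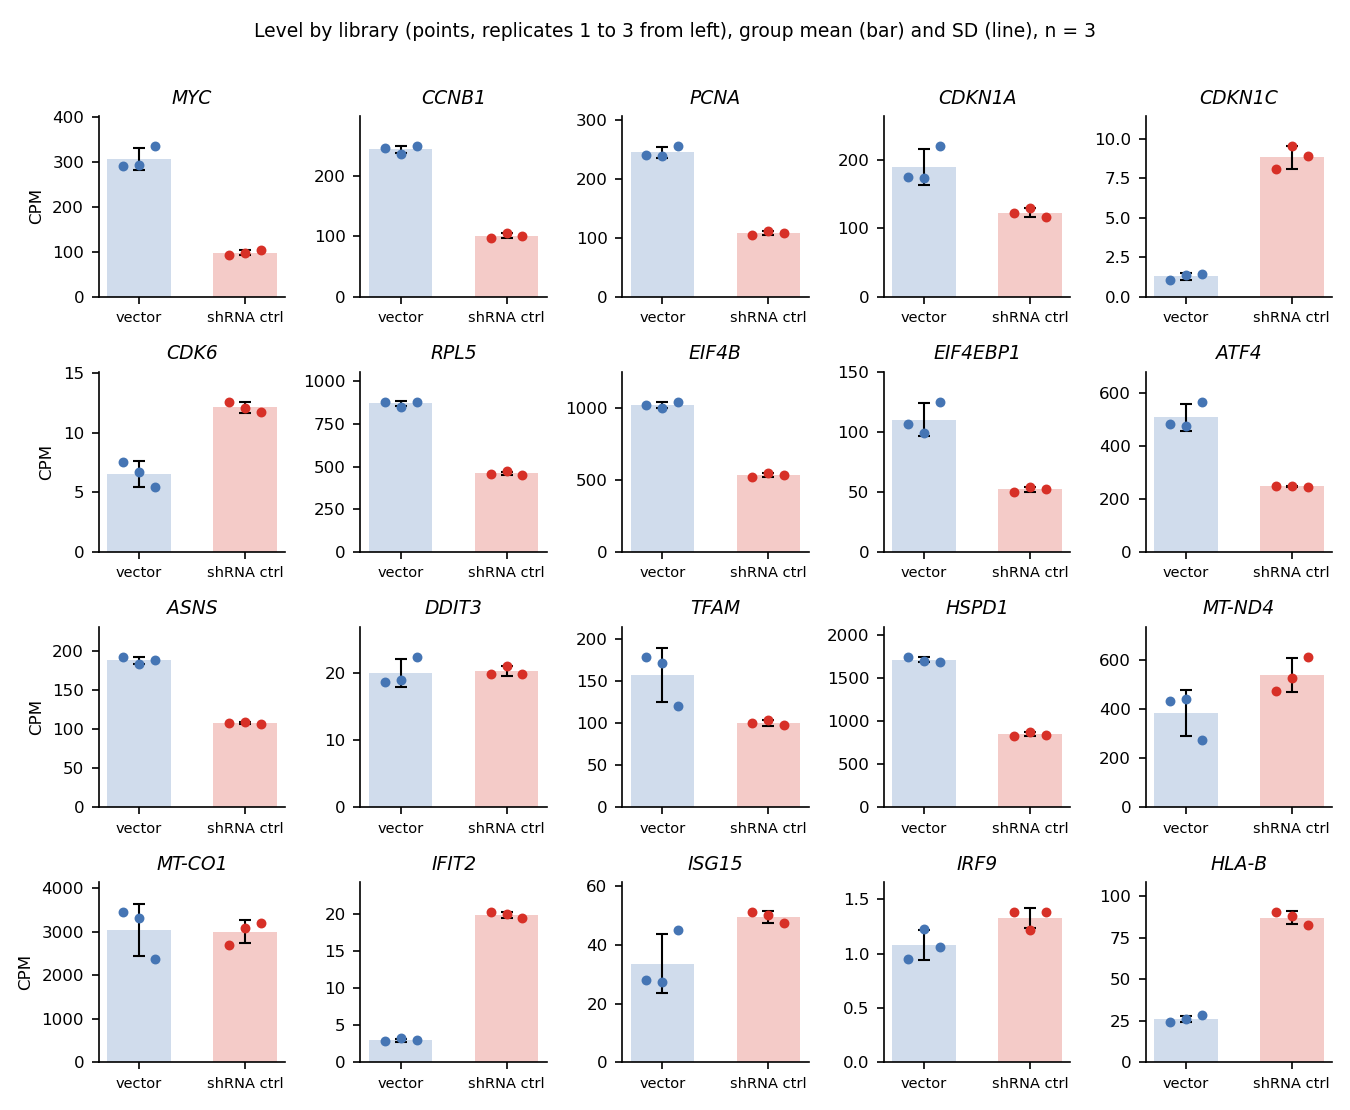
Level of 20 genes (CPM, vertical axes starting at 0) in vector control and shRNA control libraries. Points are single libraries, bars group means and lines the SD over 3 libraries; MYC, CCNB1, RPL5 and HSPD1 are low in all shRNA control libraries, IFIT2 and HLA-B are high, and DDIT3, MT-CO1 and IRF9 did not pass the test.

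Genes of the translation machinery were mostly lower. All 79 genes for proteins of the cytosolic ribosome fell, with a median log2 difference of -0.70 (-0.66 without vector control replicate 3, with all 79 still lower), and for none of them did the groups overlap. Together these genes took 6.16 to 6.44% of counted reads in vector control and 4.23 to 4.24% in shRNA control libraries (6.25% ± 0.161 against 4.24% ± 0.00586, SD, n = 3 each; exact two-sided permutation p = 0.1, the smallest that 3 against 3 allows). RPL5, a large-subunit protein that also binds MDM2, stood at 879, 851 and 880.5 CPM in vector control and at 456, 472 and 453 CPM in shRNA control libraries (log2 difference -0.92, adjusted p = 2.74e-09). RPL3 fell from 1778, 1773 and 2210.3 CPM to 1065, 1072 and 1065 CPM. Its vector control replicate 3 was the highest library, and the difference was -0.85 with it and -0.74 without it. RPL9 and RPL12 both fell by 0.81 on the log2 scale. Ribosomal protein genes have many processed pseudogenes, and how reads with several matches were counted is not given in the sources used here.

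Most translation factors fell by less than the ribosomal proteins. Of 48 tested initiation factors and their regulators, 38 fell, 2 rose and 8 were not called (median -0.43), and without vector control replicate 3 41 were called lower and 2 higher (median -0.41). EIF4B, which aids the helicase that unwinds mRNA leaders, fell from 1024, 1001 and 1047 CPM to 522, 549.7 and 535 CPM (log2 difference -0.94, adjusted p = 1.83e-09). EIF4EBP1, the inhibitor of cap binding that mTORC1 switches off, fell from 106, 98.8 and 125 CPM to 50.0, 53.6 and 52.5 CPM. Its paralog EIF4EBP2 rose by 0.24 on the log2 scale and the scaffold protein EIF4G3 by 0.35, so the genes of this list did not all move together. Of 15 tested elongation and termination genes, 10 fell and 2 rose (median -0.40), and without that library 11 were called lower and 3 higher (median -0.38). The elongation factors EEF1A1, EEF1B2 and EEF2 fell by 0.66, 0.87 and 0.77 on the log2 scale. The 2 genes that rose were EEF2K, the kinase that restrains EEF2, at 0.20, and GTPBP1 at 0.22. The groups overlapped for GTPBP1, which stood at 0.35 without vector control replicate 3 and lost its call without any other library of the 2 groups (adjusted p = 0.0683 to 0.185). EEF2K was not called without vector control replicate 1 or 2 (adjusted p = 0.057 and 0.0556). All 22 cytosolic aminoacyl-tRNA synthetases, which load tRNAs with amino acids, fell, with a median of -0.52. Without vector control replicate 3, 20 of the 22 were called lower. GARS1, IARS1 and YARS1 had the smallest p and fell by 0.79, 0.73 and 0.76 on the log2 scale.

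Genes that build ribosomes were lower too. Of 69 tested genes of ribosome biogenesis and RNA polymerase I, 60 fell and 9 were not called (median -0.54), and leaving out vector control replicate 3 gave 64 lower and 1 higher (median -0.50). The polymerase I subunit POLR1E stood at 85.3, 84.7 and 98.8 CPM in vector control and at 45.8, 47.1 and 46.7 CPM in shRNA control libraries (log2 difference -0.94, adjusted p = 1.37e-08), and POLR1B and POLR1D fell by 0.72 and 0.84 on the log2 scale. All 19 host genes of small nucleolar RNAs (snoRNAs), which guide the modification of ribosomal RNA and lie in introns of these hosts, fell, with a median of -0.80 (19 lower and -0.75 without that library). DANCR fell from 217, 209.6 and 213 CPM to 94.2, 99.4 and 97 CPM, GAS5 by 0.95 and SNHG16 by 0.92 on the log2 scale. Reads on snoRNA genes themselves made up 0.825 to 1.78% of counts in vector control and 0.457 to 0.772% in shRNA control libraries, with the highest share in vector control replicate 3 (exact two-sided permutation p = 0.1). Of 243 tested snoRNA genes, 91 fell and 6 rose, with a median of -0.55, and -0.50 without that library. The recovery of small RNAs can differ between libraries, and its part in the snoRNA values was not tested.

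Targets of ATF4, the transcription factor of the amino acid and integrated stress response, fell with the rest. Of 44 genes on that list, 36 fell, 3 rose and 5 were not called (median -0.59), and without vector control replicate 3 36 were called lower and 4 higher (median -0.58). ATF4 stood at 484, 477 and 569 CPM in vector control and at 249, 249 and 246 CPM in shRNA control libraries (log2 difference -1.04, SE 0.07, adjusted p = 9.18e-09). ASNS, asparagine synthetase, fell from 193, 184 and 189 CPM to 108, 109 and 107 CPM. PSAT1 of serine synthesis and STC2, a secreted glycoprotein induced by stress, fell by 0.89 and 1.00 on the log2 scale. DDIT3 (CHOP), the stress factor downstream of ATF4, did not pass the test: it stood at 18.6, 18.9 and 22.4 CPM against 19.9, 21.1 and 19.8 CPM (log2 difference 0.02, adjusted p = 0.844), and the groups overlapped. The 3 that rose were ALDH1L2, a mitochondrial enzyme of folate metabolism, at 0.83, PPP1R15A, which directs the dephosphorylation of eIF2alpha, at 0.62, and VLDLR, a lipoprotein receptor, at 0.61 on the log2 scale. ATF4 and ASNS were thus lower together, and DDIT3 did not pass the test.

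**Figure D3:**
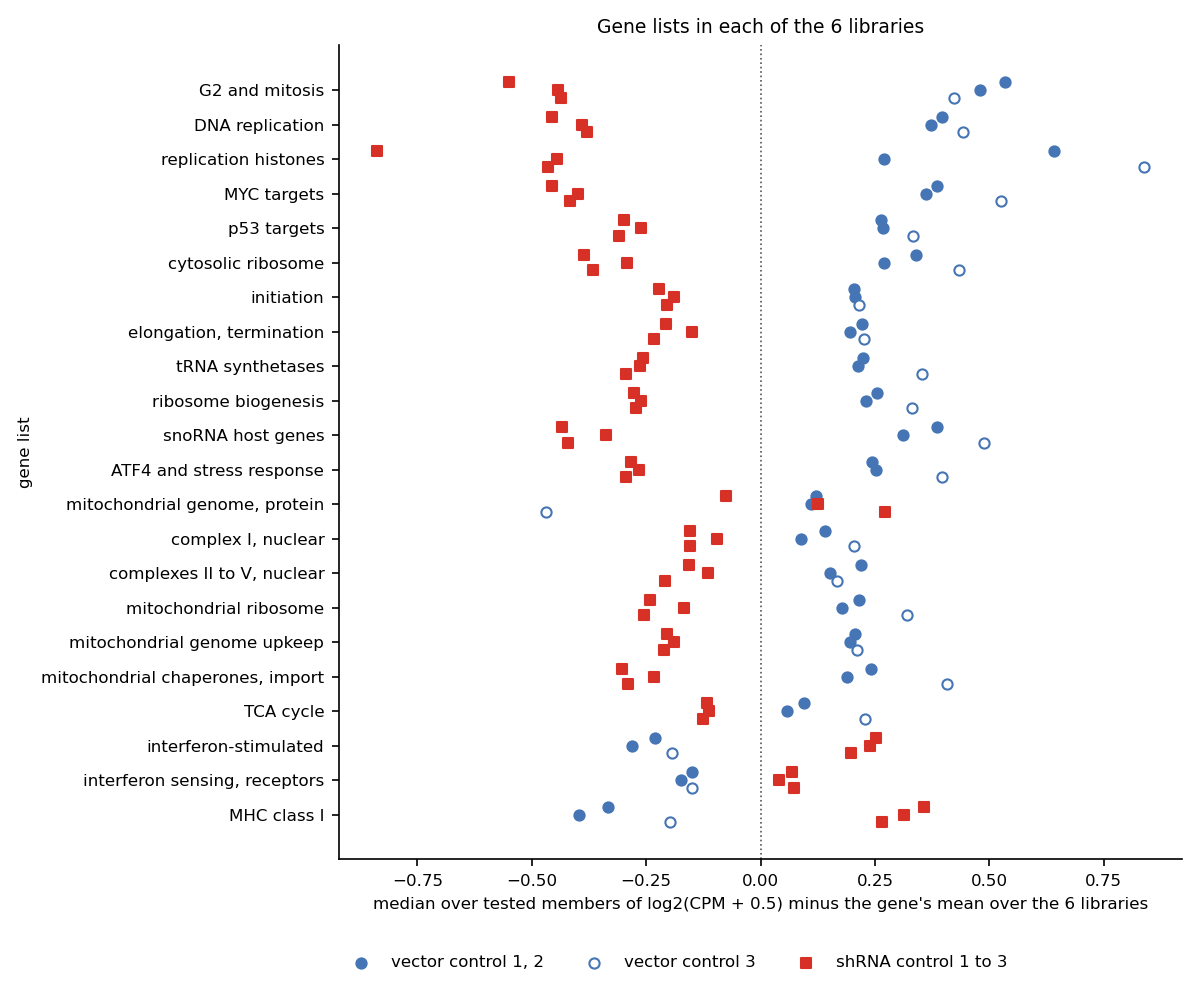
Median over the tested members of each list of log2(CPM + 0.5) minus the gene's mean over the 6 libraries (horizontal axis), for each library. Red squares are shRNA control, filled blue circles vector control replicates 1 and 2, and open circles vector control replicate 3; the groups separate for every list plotted but the protein genes of the mitochondrial genome, where vector control replicate 3 is the lowest library. Lists not plotted are mitochondrial ribosomal RNA, the markers, the cyclins with CDKs and their inhibitors, and the lists under other observations. Among the lists not plotted, the groups overlap for that RNA and for the immune and neuroendocrine markers.

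Nuclear genes for mitochondrial proteins were mostly lower, and none of the protein-coding or ribosomal RNA genes of the mitochondrial genome was called lower. Of 79 tested genes for proteins of the mitochondrial ribosome, 63 fell, 1 rose and 15 were not called (median -0.47), and without vector control replicate 3 65 were called lower and 2 higher (median -0.44). MRPL18 stood at 121, 118 and 122 CPM in vector control and at 61.9, 67.2 and 63.5 CPM in shRNA control libraries (log2 difference -0.91, adjusted p = 1.29e-08), and MRPL58 and MRPL15 fell by 0.84 and 0.75 on the log2 scale. The single gene that rose was MRPS14, by 0.30. Of 47 tested genes that maintain and express the mitochondrial genome, 37 fell, 1 rose and 9 were not called (median -0.41), and without that library 39 were called lower and 1 higher (median -0.39). TFAM, which packages mitochondrial DNA and starts its transcription, stood at 179, 172 and 120.2 CPM against 99.8, 104 and 97.3 CPM (log2 difference -0.65, adjusted p = 0.00012). Its vector control replicate 3 was the lowest of the 3, and the difference was -0.81 without it. PPARGC1B, a coactivator of mitochondrial biogenesis, fell by 1.11, the RNA-binding protein SLIRP by 0.77 and the ribosome recycling factor MRRF by 0.73 on the log2 scale. The related coactivator PPARGC1A stood below 1 CPM in all 6 libraries and was not called (adjusted p = 0.583). MTERF4, which acts in assembly of the mitochondrial ribosome, was the gene that rose, from 70.0, 70.9 and 74 CPM to 117, 118 and 107 CPM.

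Respiratory chain and matrix genes fell by smaller amounts. Of 37 nuclear subunits and assembly factors of complex I, 23 fell, 2 rose and 12 were not called (median -0.31), and leaving out vector control replicate 3 gave 24 lower and 2 higher (median -0.22). NDUFB4 stood at 349, 336 and 282 CPM in vector control and at 189, 196 and 180.2 CPM in shRNA control libraries (log2 difference -0.77). NDUFA3 and NDUFA13 were the 2 that rose, by 0.37 and 0.26, but NDUFA13 was not called without shRNA control replicate 2 (adjusted p = 0.0659) or vector control replicate 1 (0.0551). Of 43 nuclear genes of complexes II to V, 30 fell and 13 were not called (median -0.32), and without that library 35 were called lower and 2 higher (median -0.39). ATP5MC1, ATP5MC3 and ATP5PO of ATP synthase fell by 0.66, 0.61 and 0.62 on the log2 scale. Of 21 genes of the TCA cycle and pyruvate dehydrogenase, 13 fell, among them DLAT, PDHA1 and SUCLG1, and IDH3G rose (median -0.27), and without that library 14 were called lower and 2 higher (median -0.19). Of 33 tested mitochondrial chaperones, proteases and import factors, 29 fell and 1 rose (median -0.55), and without that library 30 were called lower and 1 higher (median -0.52). With HSPD1, the import receptor TOMM22 and the small chaperone TIMM8A had the smallest p, and both fell, by 0.77 and 0.78. The gene called higher was the protease SPG7, at 0.25, but its groups overlapped since vector control replicate 3 stood at 116 CPM, within the shRNA control range of 113 to 117 CPM. It stood at 0.40 without that library and was not called without any other library of the 2 groups (adjusted p = 0.0534 to 0.151).

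The mitochondrial genome took 1.04, 1.24 and 0.691% of reads in the vector control libraries and 1.08, 1.4 and 1.2% in the shRNA control libraries (0.99% ± 0.279 against 1.22% ± 0.162, SD, n = 3 each; exact two-sided permutation p = 0.4). The groups overlapped, and vector control replicate 3 was the lowest library. Of its 13 protein-coding genes 3 were called higher and 10 were not called, with a median of 0.16. MT-ND4, a complex I subunit, stood at 433, 442 and 275 CPM against 476, 528 and 613 CPM (log2 difference 0.49, adjusted p = 0.0144). MT-CYB of complex III and MT-ND5 of complex I were the other genes called, at 0.42 and 0.33. MT-CO1, a catalytic subunit of complex IV, stood at 3447, 3306 and 2367 CPM against 2703, 3081 and 3211 CPM (log2 difference -0.02, adjusted p = 0.901). Without vector control replicate 3 the list had a median of -0.05, with 2 genes called higher and 3 lower, and MT-CO1 was among the lower ones (-0.17, adjusted p = 0.0135). MT-ND4, MT-CYB and MT-ND5 then stood at 0.30, 0.25 and 0.20, the last with an adjusted p of 0.0513. Without shRNA control replicate 3 none of these 3 was called (adjusted p = 0.0783, 0.112 and 0.154). With only the 6 libraries in the fit none of the 13 was called. Neither mitochondrial ribosomal RNA was called (median log2 difference 0.48).

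Interferon-stimulated genes and antigen presentation were higher. Of 77 tested interferon-stimulated genes, 52 rose, 7 fell and 18 were not called, with a median of 0.56. Without vector control replicate 3, 57 rose, 6 fell and the median was 0.59. The share that rose, 67.5%, compares with 28.3% of protein-coding genes. IFIT2, an inhibitor of viral translation, stood at 2.82, 3.22 and 2.95 CPM in vector control and at 20.2, 19.9 and 19.4 CPM in shRNA control libraries (log2 difference 2.73, SE 0.10, adjusted p = 1.39e-11). APOL6, an apolipoprotein L family member, rose from 2.02, 2.1 and 2.14 CPM to 13.9, 12.8 and 13.3 CPM. UBA7, the enzyme that activates the ubiquitin-like modifier ISG15, rose from 2.53, 2.51 and 2.61 CPM to 13, 12.2 and 10.9 CPM. None of these 3 genes overlapped between the groups. ISG15 itself rose by less, and its vector control replicate 3 lay nearest to the shRNA control libraries: it stood at 28.2, 27.4 and 45.2 CPM against 51.1, 50.1 and 47.3 CPM, a log2 difference of 0.56 (adjusted p = 0.00358) that was 0.83 without that library (adjusted p = 2.09e-10). IFIT1 rose from 1.92, 1.9 and 2.31 CPM to 3.9, 3.87 and 3.17 CPM. The genes that fell with the smallest p were TRIM25, TRIM14 and LAP3, by 0.32, 0.36 and 0.37 on the log2 scale.

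With all libraries in the fit, genes of interferon signalling upstream of these were called higher about as often as other genes. Of 16 tested genes for interferon receptors, their kinases and sensors of foreign nucleic acid, 5 rose (31.2%, beside 28.3% of protein-coding genes), 1 fell and 10 were not called (median 0.07). With vector control replicate 3 left out, 8 were called higher and 3 lower (median 0.17). Of all genes tested in that fit, 23.6% were called higher and 22.3% lower. IRF9, a transcription factor of the interferon response, stood between 0.953 and 1.38 CPM in all 6 libraries and was not called (log2 difference 0.30, adjusted p = 0.178). Neither IFNB1 nor the lambda interferon genes of the list (IFNL1, IFNL2 and IFNL3) had enough reads to be tested. The 3 rises with the smallest p were TLR3, the endosomal sensor of double-stranded RNA, at 1.19, the kinase JAK2 at 0.83 and the receptor subunit IL10RB at 0.62 on the log2 scale. TLR3 stood at 4.31, 4.17 and 2.99 CPM against 8.8, 9.43 and 8 CPM. IFNLR1 was called lower but stood below 0.4 CPM throughout. Higher levels of stimulated genes thus stood beside an IRF9 level that did not pass the test.

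Most MHC class I genes rose as well: 18 of 22 rose, none fell and 4 were not called, with a median of 0.69 (0.76 without vector control replicate 3, with 17 called higher). HLA-B stood at 24.6, 25.9 and 28.4 CPM in vector control and at 90.4, 88.1 and 82.7 CPM in shRNA control libraries (log2 difference 1.73, SE 0.07, adjusted p = 2.8e-11). B2M, the light chain that all class I molecules share, rose from 138, 137 and 126 CPM to 256, 272 and 229 CPM, and HLA-F by 1.27 on the log2 scale. The peptide transporter genes TAP1 (-0.01) and TAP2 (-0.05) were not called. HLA genes are polymorphic and alike, so reads may be divided among them. CD274, which encodes the immune checkpoint ligand PD-L1, was among the 10 largest rises of all genes, from 2.53, 2.67 and 2.26 CPM to 18.1, 16.8 and 16.7 CPM (log2 difference 2.79, adjusted p = 7.74e-12).

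Promoter sequences of the lists that moved are shown because their motifs are textbook features of interferon-stimulated and mitotic genes. The sequences are the 250 bases before the start of transcription on the gene's strand, from RefSeq (GRCh38.p14), for the called member with the largest change and a mean of at least 5 CPM whose stretch held the motif. Capitals mark the interferon-stimulated response element (GAAA, any base at 2 positions, GAAA) in DDX60, a helicase of antiviral defence at chr4:168318753-168319002 on the minus strand. In CENPA, the centromeric histone at chr2:26785806-26786055 on the plus strand, they mark CCAAT and TTTGAA, the elements of mitotic promoters known as the CCAAT box and the CHR. Both strands were searched, and matches of different motifs may overlap.
DDX60: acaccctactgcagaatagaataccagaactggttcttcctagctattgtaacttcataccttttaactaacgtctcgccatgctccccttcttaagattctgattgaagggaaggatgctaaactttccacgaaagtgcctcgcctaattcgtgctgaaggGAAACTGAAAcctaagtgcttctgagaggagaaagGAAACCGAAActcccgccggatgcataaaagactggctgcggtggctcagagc
CENPA: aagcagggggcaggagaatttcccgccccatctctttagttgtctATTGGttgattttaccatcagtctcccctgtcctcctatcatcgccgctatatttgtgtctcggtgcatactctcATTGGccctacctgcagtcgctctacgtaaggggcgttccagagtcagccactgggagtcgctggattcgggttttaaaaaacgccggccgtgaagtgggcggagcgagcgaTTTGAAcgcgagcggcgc

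The DDX60 stretch held the response element at 88 and 53 bases before the start, and DDX60 stood at 12.5, 10.5 and 9.25 CPM in vector control and at 48.3, 46.9 and 43.1 CPM in shRNA control libraries (log2 difference 2.10). The CENPA stretch held TTTGAA at 18 bases and CCAAT, read on the other strand as ATTGG, at 205 and 130 bases before the start, and CENPA fell from 21.3, 21.5 and 18.1 CPM to 7.61, 9.69 and 9.1 CPM. Both genes were picked after their values were seen. The letters of the response element were found for 31 of 61 interferon-stimulated genes with a sequence (50.8%) and for 3.07% of all 27305 promoters of this length. TTTGAA was found for 51.9% of 52 mitotic genes and 13.6% of all promoters, and CCAAT for 71.2% and 33%. For the response element the calls were close to those of all genes. Among all 324 tested genes with the response element 25.6% rose and 28.4% fell, beside 26.5% and 28.1% of all 13512 tested genes with a sequence. Within the interferon-stimulated list, 19 of 30 tested genes with the letters rose and 5 fell, and 25 of 29 without them rose and 1 fell. All 22 mitotic genes with both TTTGAA and CCAAT fell, as did all 30 without the pair. Of all 492 tested genes with the pair, 36.4% fell and 21.5% rose. For E2F letters (TTTCCCGC or TTTGGCGC) these shares were 35% and 23.3% of 377 genes, for CACGTG, the E-box that MYC binds, 30.8% and 24.6% of 1126 genes, and for the site of the mitochondrial gene regulator NRF1 (GCGCA, any base, GCGC) 33.6% and 21.6% of 1248 genes. A match of letters is not evidence of binding, and these shares carry no test.

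The largest single difference was at a microRNA gene. MIR196A2 (ENSG00000207924) had 0 reads in all 3 vector control libraries and 18332, 14875 and 16516 reads in the shRNA control libraries, or 165, 173 and 169 CPM. Against a floor of 3 reads per library it was at least 4338-fold higher. It had 0 reads in all 3 USP22 overexpression libraries as well, and 15401, 15298 and 12507 reads in the USP22 depletion libraries, which also carry an shRNA and received doxycycline. It was the 1 ID of the table with at most 3 reads in each library without an shRNA and at least 30 reads in each library with 1, and no ID showed the reverse. Its neighbours in the HOXC cluster were not called: HOXC6 stood at 13.1 to 14.4 CPM in vector control and 13.8 to 15.1 CPM in shRNA control libraries (log2 difference 0.04, adjusted p = 0.754), and HOXC8, HOXC9 and HOXC10 had adjusted p of 0.127, 0.0613 and 0.409. HOXC9 was called lower under some alternatives, among them without vector control replicate 3 (-0.33, adjusted p = 0.0267) and with DESeq2 (-0.30, adjusted p = 0.0432), and HOXC8 was called higher without shRNA control replicate 1 (1.13, adjusted p = 0.021). As background, many shRNA vectors place the hairpin inside a scaffold taken from a natural microRNA gene. The shRNA vector is not named in the sources used here, the source of these reads was not tested, and mature microRNAs were not measured by these libraries. The reference hairpin is shown because it is the short stretch on which these reads were counted. It lies at chr12:53991738-53991847 on the plus strand in RefSeq (GRCh38.p14), with the mature arm in capitals, and the mature sequence follows with its seed, bases 2 to 8, in capitals.
MIR196A2 hairpin: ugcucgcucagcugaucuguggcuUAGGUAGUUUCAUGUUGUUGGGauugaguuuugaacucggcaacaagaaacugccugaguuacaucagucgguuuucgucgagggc
hsa-miR-196a-5p: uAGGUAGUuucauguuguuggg

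The largest rises were taken from called genes with a mean of at least 5 CPM and a symbol that is not a clone name. After MIR196A2 they were MDGA1, SHC2, SUSD2, ZMAT1, SCD5, NFASC, CD274, CDKN1C and IFIT2. MDGA1, a cell adhesion protein anchored to the membrane, stood at 1.35, 1.65 and 1.38 CPM in vector control and at 17.4, 15.8 and 16.9 CPM in shRNA control libraries (log2 difference 3.51, SE 0.11, adjusted p = 2.29e-12). SHC2, an adaptor of receptor tyrosine kinases, rose from 2.24, 2 and 3.16 CPM to 21.3, 20.4 and 19.5 CPM. The lipid desaturase SCD5 and the adhesion protein NFASC rose by 2.85 and 2.80 on the log2 scale. The groups were separate for each of these genes.

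**Figure D4:**
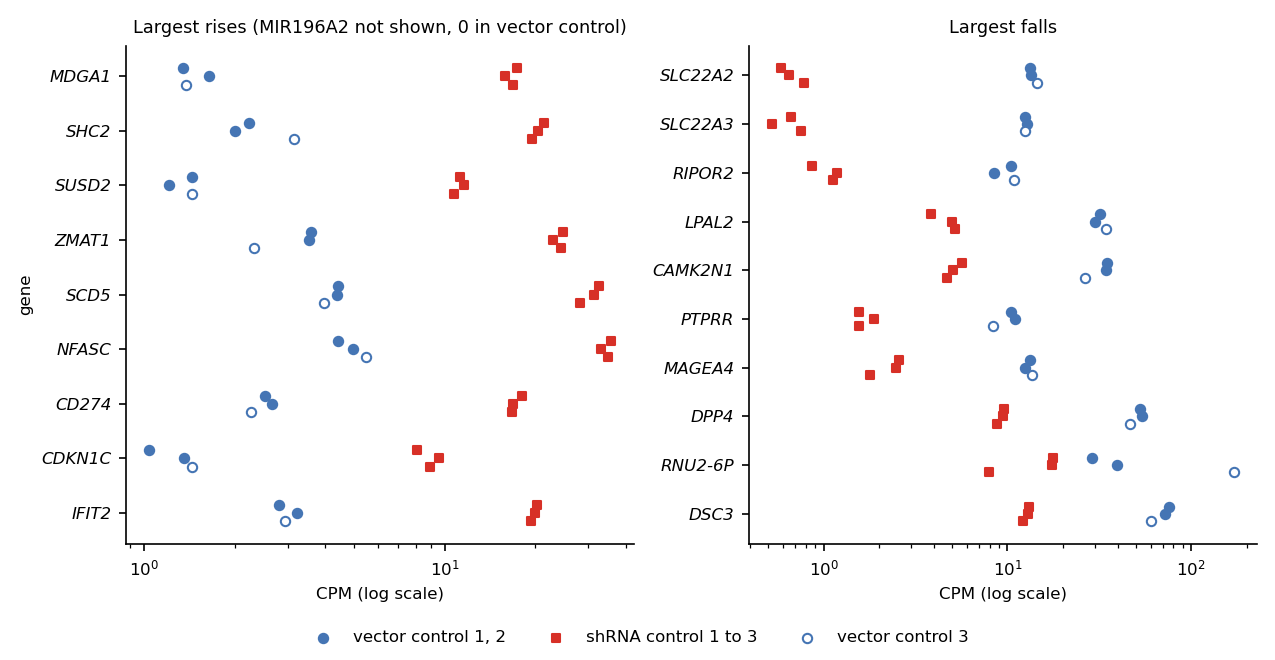
Levels (CPM, logarithmic horizontal axes) of the genes with the largest rises and the largest falls, by library; MIR196A2 is left out because it had 0 reads in vector control. Red squares are shRNA control, filled blue circles vector control replicates 1 and 2, and open circles vector control replicate 3, which reaches 170.5 CPM for RNU2-6P.

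By the same rule, which demands a symbol, the largest falls were SLC22A2, SLC22A3, RIPOR2, LPAL2, CAMK2N1, PTPRR, MAGEA4, DPP4, RNU2-6P and DSC3. SLC22A2, a transporter of organic cations, stood at 13.3, 13.4 and 14.4 CPM in vector control and at 0.584, 0.653 and 0.779 CPM in shRNA control libraries (log2 difference -4.35, SE 0.12, adjusted p = 1.66e-12). Its paralog SLC22A3 fell from 12.5, 12.8 and 12.4 CPM to 0.665, 0.525 and 0.758 CPM, and LPAL2, a pseudogene related to apolipoprotein(a), from 31.8, 29.9 and 34.3 CPM to 3.83, 4.99 and 5.19 CPM. These 3 lie side by side on the chromosome in RefSeq's gene order. The genes around them, looked up after these values were seen, were lower too. The long noncoding RNA ENSG00000230234 between the transporters fell from 45.4, 44.9 and 47.9 CPM to 1.24, 1.14 and 1.63 CPM (log2 difference -5.10). It fell by more than any gene listed above, but has no symbol. LPA fell by 2.30 on the log2 scale (SE 0.53), at low levels of 0.419, 0.39 and 0.155 CPM against 0.0629, 0.0933 and 0.041 CPM. Farther out on each side, IGF2R fell by 0.35 and MAP3K4 by 0.53. DPP4, a cell surface peptidase, fell from 52.3, 53.9 and 46.5 CPM to 9.55, 9.43 and 8.77 CPM, and the desmosomal cadherin DSC3 fell by 2.44 on the log2 scale. RNU2-6P, a copy of the U2 small nuclear RNA, owed its place to 1 library: vector control replicate 3 stood at 170.5 CPM beside 28.8 and 39.5 CPM, and the log2 difference of -2.46 was -1.25 without it. Reads of such copies may be divided among near-identical genes.

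The other 6 libraries of the series allow the same pair of conditions to be set side by side, since USP22 depletion cells also carry an shRNA and received doxycycline and USP22 overexpression cells did not. That comparison shares no library with the main one, but USP22 differed in it too, by -2.51 on the log2 scale, so the parts of vector, doxycycline and USP22 cannot be told apart in it. It called 7284 genes, 27.9% of those tested, 3706 higher (14.2%) and 3578 lower (13.7%). Of the 5665 genes that rose in the shRNA control, 2887 (51%) also rose in USP22 depletion, which is 77.9% of the genes that rose there. Of the 5546 that fell, 2703 (48.7%) also fell, 75.5% of the genes that fell there. Calls went in opposite directions for 176 genes, 0.675% of those tested.

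The growth and translation lists had the same direction in these other libraries, with smaller medians. Of the mitotic genes 53 of 60 fell (median -0.33), of the MYC targets 49 of 58 (-0.39) and of the cytosolic ribosomal proteins 77 of 79 (-0.43), and none rose. MYC itself fell by 0.90 on the log2 scale. Of the interferon-stimulated genes 33 of 77 rose and 14 fell (median 0.28), and IFIT2 rose by 2.74. Of the MHC class I genes 7 of 22 rose and 2, TAP1 and TAP2, fell (median 0.15), and HLA-B rose by 0.31. The ATF4 list went another way: 12 of its 44 genes rose and 8 fell (median 0.08), and 7 were called in opposite directions in the 2 comparisons. ASNS was among these 7, at 0.23 with an adjusted p of 0.00361. The ATF4 gene itself fell in both comparisons, by 0.29 on the log2 scale in the other 6 libraries (adjusted p = 0.00536). None of the 13 protein-coding genes of the mitochondrial genome was called (median -0.01). Fewer nuclear genes of mitochondria fell than in the main comparison, which also called more genes in all (43% of those tested against 27.9%). Among the 14870 protein-coding genes 2854 fell and 2925 rose in the other 6 libraries. Of complex I 8 of 37 fell and 2 rose (median -0.02), a share lower that was close to that of protein-coding genes. Of complexes II to V 14 of 43 fell and 2 rose (-0.16). Of the TCA cycle genes 6 of 21 fell and none rose (-0.12), and of the mitochondrial ribosomal proteins 37 of 79 fell and 1 rose (-0.22). Whether the 2 comparisons differed from each other at any gene was not tested.

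**Figure D5:**
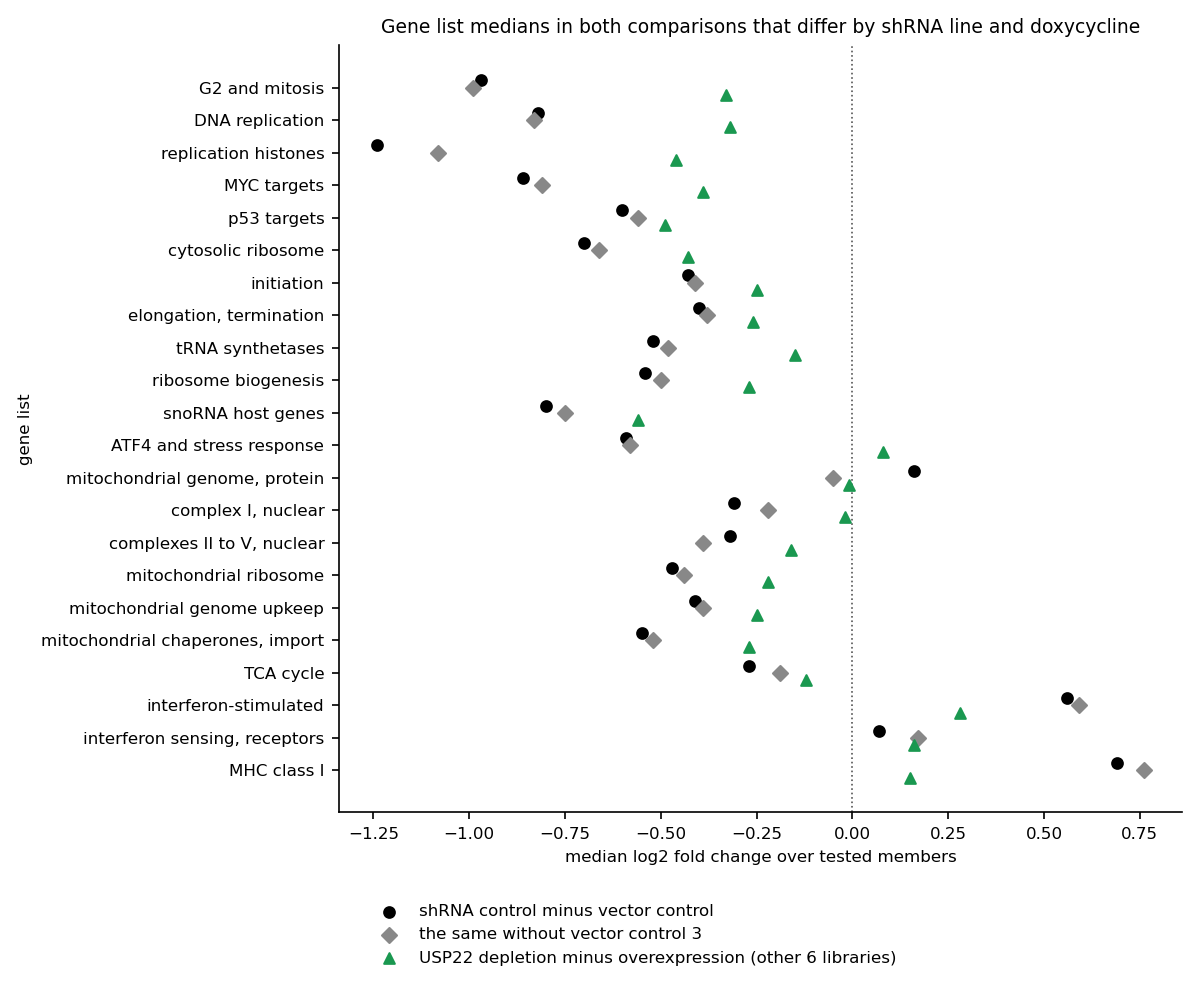
Median log2 fold change over the tested members of each list (horizontal axis) for shRNA control minus vector control, for the same without vector control replicate 3, and for USP22 depletion minus USP22 overexpression, which uses the other 6 libraries. The growth and translation medians lie below 0 in all 3 except for the ATF4 list, which is at 0.08 in the last.

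Several measures of the libraries moved with these results. CPM values are shares of each library's RNA after scaling, so a total change of RNA per cell was not measured. Longer genes stood higher: with protein-coding genes divided into 4 equal groups by exonic length, the median log2 difference from the shortest to the longest group was -0.08, -0.03, 0.02 and 0.10. In the same order 19.9, 25.7, 29.9 and 37.7% of genes were called higher, and 31.7, 32.3, 27.5 and 23% lower. The cytosolic ribosomal protein genes had a median exonic length of 3130 bases and the mitotic genes of 4508 bases, both within the second group (3116 to 4921 bases), with list medians of -0.70 and -0.97. Lists with a median length in the shortest group (up to 3115 bases) included complex I (2263 bases) and complexes II to V (2615 bases). Their list medians were -0.31 and -0.32. The mitochondrial ribosome (2549 bases) and the replication-dependent histones (718 bases) also lay there, at -0.47 and -1.24. The part of gene length in the results was not tested.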

How the data were processed

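Stranded total RNA libraries were made from LNCaP cells, per the labels' protocols. Values are raw read counts per Ensembl gene ID in 1 table that the authors deposited. The submitters' processing notes name the hg19 build, featureCounts 1.5.0-p3, STAR 2.5.2a and DESeq2 1.14.1. The annotation release, strand setting and handling of multiply mapped reads are not stated. Reads of paralogs, pseudogenes, overlapping and antisense genes may therefore be divided or lost. Counted genes are given no coordinates, since the available annotation is GRCh38.

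Groups came from the sample labels, and columns were matched to samples by name. Symbols were found by ID for 39699 IDs (62.3%), gene types and exonic lengths in GENCODE 29, and promoter and microRNA sequences in RefSeq tables. Of 1230 entries in 35 gene lists, 1191 were matched. The genes and lists were chosen with earlier results of these data known, some genes stand in several lists, and lists carry no test.

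In R 4.3.3 with edgeR 4.0.16, genes passed filterByExpr by group, libraries were scaled by TMM, and a model of all 4 groups (12 libraries, 8 residual degrees of freedom) was fitted by glmQLFit, with glmQLFTest for each contrast. Benjamini-Hochberg adjustment covered all tested genes, with a threshold of 0.05. CPM uses scaled library sizes, fold changes are log2, and standard errors were derived from each F statistic. Shares of reads were compared by exact permutation. Genes named were preset genes, the 10 largest rises and falls among called genes with a mean of at least 5 CPM, groups that do not overlap and a symbol that is not a clone name, and per list of the growth, translation, mitochondrial and interferon groups up to 3 called members per direction with the smallest p. Some of the genes so chosen are not reported here.

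Depth was 77607469 to 103690001 reads over the 12 libraries. On data simulated for the 26076 genes in 3 simulations, 10.7% of changes of 1.25-fold were recovered, 50% at 1.5-fold, 63.3% at 2-fold and 82.7% at 4-fold. Of the calls made on these simulated data, 5.78% were false. Each fold size was given to 150 genes in total over the 3 simulations, beside 77628 without a change. Far fewer genes thus changed there than the 43% called here. The adjustment depends on that share, so these values do not give the recovery or the false calls of this comparison. Replicates differed by more than counting noise, so none was counted as a repeat. Alternatives were RLE scaling, no filter, at least 1 CPM in at least 3 libraries, protein-coding genes alone, leaving out the 20 most abundant genes, DESeq2 1.42.0, limma 3.58.1 voom with and without sample quality weights, only the libraries compared, a replicate block, stricter thresholds and leaving out each replicate.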

Additional observations from a re-analysis of the deposited data

How the results depend on the processing

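The count of 11211 called genes stayed within 1.5 times under all alternatives run except the demand for at least 2-fold, which left 2964. With only the 6 libraries compared in the fit, 9444 of 24637 tested genes were called, and 9351 of the 11211 kept their call and direction. Leaving out each library in turn gave 9514 to 12344 genes, and 12629 with only the 5 libraries compared and without vector control replicate 3, a setting added after seeing the data. DESeq2 called 11415 and limma voom 11328. For USP22 depletion minus USP22 overexpression, limma voom with sample quality weights called 11184, a threshold of 0.01 left 4839 and at least 2-fold left 1612, and leaving out each library gave 5734 to 10329 genes. The mitochondrial share differed by 0.232 percentage points, and by 0.0824 to 0.358 with 1 library left out.

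Replicate numbers are shared between groups in the labels, but deviations of same-numbered libraries had correlations of 0.03, 0.00 and 0.08, so the numbers were not taken as pairs. With the replicate number as a block, 11308 and 7524 genes were called in the 2 comparisons.

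Alternatives were followed for 133 named genes, and no called gene among these changed sign under any alternative run. Of 3041 values of these genes under alternatives, 26 lost and 20 gained a call, in 12 genes. Not all marker genes and genes of the other observations named in the text were among the 133. DST, a basal marker outside them, kept its call in 12 of 23 alternatives. KLK3, not called at 0.20 (adjusted p = 0.0605), was called without vector control replicate 3 at 0.29. MT-ND4 lost its call with only the 6 libraries (adjusted p = 0.051). List medians changed sign under some setting for mitochondrial protein genes, mitochondrial ribosomal RNA (-0.05 without shRNA control replicate 2) and the immune and neuroendocrine markers. The cause of these changes was not tested. Precision was lower for PPARGC1A, which stood below 1 CPM (log2 difference -0.22, SE 0.29), than for MYC (SE 0.07).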

Other observations

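Other gene groups also differed between shRNA control and vector control. Genes named here were picked after their values were seen. Of 35 tested androgen-responsive genes, 16 rose, 10 fell and 9 were not called (median log2 difference 0.12), and without vector control replicate 3, 19 were called higher and 10 lower. With all libraries in the fit, 45.7% were higher and 28.6% lower, beside 28.3% and 28.6% of protein-coding genes. The serine protease TMPRSS2 rose from 265, 272 and 308 CPM to 833, 774 and 758 CPM, and the kallikreins KLK2 and KLK4 by 0.84 and 1.18 on the log2 scale. The prostatic acid phosphatase ACP3 fell from 28.1, 27.5 and 27.6 CPM to 10.9, 11.2 and 10.9 CPM, and the ion channel TRPM8 by 1.04. KLK3, which encodes PSA, stood at 1155, 1172 and 1413 CPM against 1464, 1426 and 1394 CPM and did not pass the test. Androgen-responsive genes thus moved both ways in cells whose luminal markers stayed high, and their share called lower equalled that of protein-coding genes.

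Metabolic and stress genes were divided as well. Of 33 tested genes of glycolysis and hypoxia, 17 fell and 7 rose (median -0.35). With vector control replicate 3 left out, 17 were called lower and 8 higher, and the median was -0.22. GAPDH, a glycolytic enzyme often used for scaling, fell from 1726, 1688 and 2105 CPM to 1092, 1164 and 1125 CPM, with that library the highest. Of 31 tested genes of cholesterol and fatty acid synthesis, 16 fell and 5 rose (median -0.22), 14 were called lower and 9 higher without that library (median -0.14), and 11 lower and 2 higher with only the 6 libraries in the fit. Of 22 genes of the unfolded protein response, 11 rose and 1 fell (median 0.16), and 16 were called higher and 1 lower without that library. HSPA5, the main chaperone of the endoplasmic reticulum, stood at 553, 550.2 and 588 CPM against 712, 784 and 845 CPM. Of 31 genes of lysosomes and autophagy, 16 rose and 5 fell (median 0.19), and 17 and 5 were called so without that library. The nuclear long noncoding RNA NEAT1 rose from 629, 648 and 571 CPM to 1419, 1431 and 1456 CPM, and MALAT1 by 0.54 on the log2 scale.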
